A study of Caenorhabditis elegans with 2 samples.

Results

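RPC-1 is the largest subunit of RNA polymerase III, and the genes described here are 180 Caenorhabditis elegans genes that the RefSeq annotation of the WBcel235 (ce11) build types only as ncRNA or lncRNA and that lie at RPC-1 peaks. They were chosen by a peak summit within 250 bp of the gene body in the reproducible peak list, at least 500 bp from any tRNA, tRNA pseudogene, rRNA or snRNA gene and over 250 bp from any snoRNA gene. Genes for the RNAs of RNase P, RNase MRP, Y and the signal recognition particle (SRP) were left out by name. The rule was met by 180 of 7949 such genes (2.26%), which shared 142 peaks. The nuclear annotation as a whole held 46890 genes, of which 2.02% had a summit of the same rule, and 3.58% of protein-coding genes did. The share of the ncRNA and lncRNA genes was thus close to that of genes in general, and the count alone does not set them apart.

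Whole hermaphrodites of strain JK1107, which carries glp-1(q224) on chromosome III, were collected as young adults, and their age is given as unknown. The animals were from a transgenic line that stably expressed RPC-1 with GFP and FLAG at its C terminus. Chromatin was precipitated with an antibody against GFP, and no untagged or wild-type group was available for comparison here. The 1 group held 2 samples, biological replicates 1 and 3, whose chromatin was sheared with a Bioruptor and a microtip respectively, so replicate and shearing method cannot be told apart. With 1 group of 2 samples there was no comparison of conditions and no test over samples. Signal from whole animals cannot be assigned to a tissue.

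RNA polymerase III makes short RNAs such as tRNAs, 5S rRNA, U6 snRNA, RNase P RNA, Y RNA and SRP RNA. At tRNA genes it is recruited through internal promoter elements, the A-box and, downstream of it, the B-box, which lie inside the transcribed sequence. At U6, RNase P RNA and Y RNA genes of animals the promoter lies upstream of the start and includes a TATA box. Transcription by this polymerase typically ends at a run of T on the coding strand. For nearly all of the 180 genes the annotation states no function, so the sequences under the strongest peaks are shown first.

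The strongest peak of the set lay on C14F11.14 (chrX:6207835-6207981, + strand, 147 bases). Its body and those under 3 further member peaks on chromosome X held copies of 1 element. The others were ZK816.8 and ZK816.9 (chrX:3348040-3348146), T22B2.9 and T22B2.12 (chrX:3914418-3914545) and K02D3.4 and K02D3.5 (chrX:13697692-13697788), annotated as overlapping genes on opposite strands. They are shown 5′ to 3′ on the strand of the element, which was the - strand for the T22B2 pair and the + strand for the rest. Capitals mark the match to GTTCAANCC, which is 1 base off the B-box motif GTTCGANNC. Upstream of it the ZK816 and T22B2 copies hold tggttgagt, which is 1 base off the A-box motif TGGCNNAGT and is not in capitals. At the C14F11.14 and K02D3 peaks no A-box with at most 1 mismatch was found at the set spacing before a B-box.
C14F11.14: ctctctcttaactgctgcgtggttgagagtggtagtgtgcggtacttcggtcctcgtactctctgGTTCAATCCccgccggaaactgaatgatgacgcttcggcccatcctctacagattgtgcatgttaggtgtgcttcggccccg
ZK816.8/ZK816.9: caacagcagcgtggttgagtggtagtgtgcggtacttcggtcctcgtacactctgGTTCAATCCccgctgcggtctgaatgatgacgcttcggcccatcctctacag
T22B2.9/T22B2.12: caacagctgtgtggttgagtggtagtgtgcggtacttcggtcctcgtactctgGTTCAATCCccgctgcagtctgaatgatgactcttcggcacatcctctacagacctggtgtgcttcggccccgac
K02D3.4/K02D3.5: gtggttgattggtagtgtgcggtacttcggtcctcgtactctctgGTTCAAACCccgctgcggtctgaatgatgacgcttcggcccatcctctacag

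A search of the nuclear genome with the T22B2 copy found 5 copies that were at least 80% identical over at least 40 bases, all on chromosome X. The 4 copies over 100 bases were those under the member peaks, with 93.7% identity over 126 bases at ZK816, 93.1% over 130 bases at K02D3 and 84.1% over 138 bases at C14F11.14. The fifth copy was a fragment of 46 bases (93.5% identity) with no summit within 250 bp in the IDR or the pooled list. None of these windows matched an annotated tRNA, snRNA, snoRNA, Y RNA or SRP RNA gene at those limits.

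A second set of members, on chromosomes II, III, IV, V and X, shared 3 short words in a fixed order, a spelling read from the member windows themselves. GTATATA lay upstream, GGTCCG followed 15 to 75 bases after it, and CTTGA came 20 to 110 bases after that. Both strands of all nuclear chromosomes held 13 such loci, and 12 of them had an IDR summit within 250 bp, which belonged to 11 peaks. The words were read from windows that IDR summits had chosen. The count of loci with a summit was thus partly fixed by the selection and is a description only. Of the 13 loci 9 overlapped member genes. All 13 had a run of at least 4 T after the last word, the locus without a summit among them. Such runs are common in this genome, and no background share stands beside this count. The words are in capitals at 6 of the loci that overlapped members, given 5′ to 3′. The coordinates are those of each locus, which reaches beyond the annotated gene body. In all 6 GTATATA lay upstream of the annotated 5′ end. Those on chromosome II are F08G2.13 (chrII:13834445-13834555, - strand), F08G2.12 (chrII:13834877-13834985, - strand), W01D2.7 (chrII:14804450-14804562, + strand) and W01D2.8 (chrII:14801346-14801458, - strand). The others are B0361.13 (chrIII:7278461-7278562, - strand) and M163.12 (chrX:14477514-14477629, + strand).
F08G2.13: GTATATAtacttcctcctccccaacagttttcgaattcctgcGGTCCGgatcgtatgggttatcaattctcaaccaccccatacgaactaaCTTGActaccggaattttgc
F08G2.12: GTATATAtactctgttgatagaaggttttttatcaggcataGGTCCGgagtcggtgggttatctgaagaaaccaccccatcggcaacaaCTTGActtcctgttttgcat
W01D2.7: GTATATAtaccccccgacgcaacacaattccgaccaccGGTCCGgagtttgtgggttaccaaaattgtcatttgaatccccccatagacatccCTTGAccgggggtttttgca
W01D2.8: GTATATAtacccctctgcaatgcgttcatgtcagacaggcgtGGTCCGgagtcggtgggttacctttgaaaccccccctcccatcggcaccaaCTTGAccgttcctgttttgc
B0361.13: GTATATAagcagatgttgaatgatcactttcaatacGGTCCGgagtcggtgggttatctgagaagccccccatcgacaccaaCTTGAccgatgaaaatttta
M163.12: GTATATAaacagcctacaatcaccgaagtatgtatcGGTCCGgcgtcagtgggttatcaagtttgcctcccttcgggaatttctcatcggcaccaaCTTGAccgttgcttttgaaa

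The other members among these loci were C15H11.12 and F35E12.11 on chromosome V and F55G1.20 on chromosome IV. F55G1.20 runs opposite to yrn-1, the annotated Y RNA gene, and the words were on the yrn-1 strand. The remaining loci with a summit were M163.13, annotated as an snRNA gene, the ncRNA gene M163.15, which the distance rule left out, and mir-2214, annotated as a microRNA gene. The locus without an IDR summit lay on chromosome I in an untranslated exon of lin-59, and its upstream word was 73 bases before the start word. At the 12 loci with a summit that spacing was 35 to 42 bases. At the start word these loci were close to the annotated 5′ end: in F08G2.13, F08G2.12 and W01D2.8 the annotation began 10, 10 and 11 bases upstream of it, and in W01D2.7 it began 14 bases downstream.

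**Figure D1:**
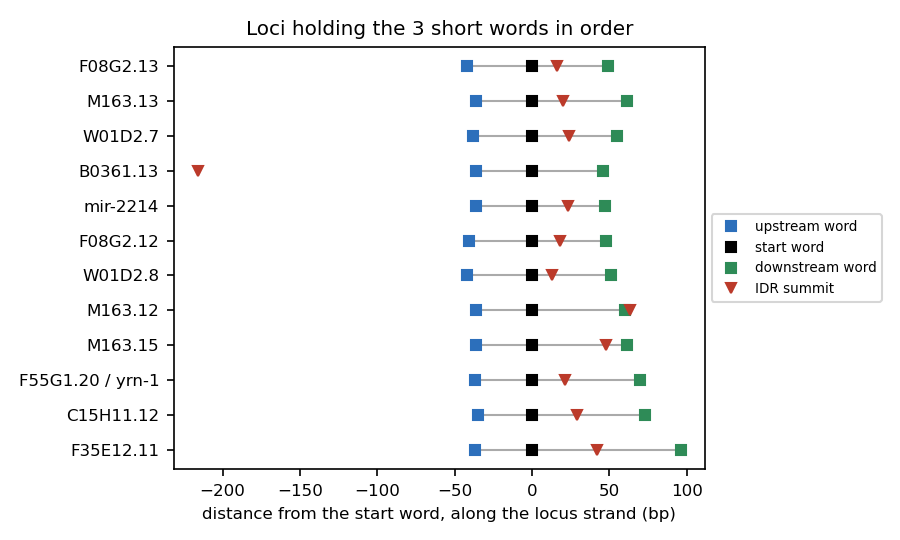
Positions of the upstream, start and downstream words and of the IDR summit at the 12 loci with a summit, as distance in bp from the start word along the strand of each locus, strongest peak at the top. The upstream word sits 35 to 42 bases before the start word in every row, and the summit lies 13 to 63 bases after it except at B0361.13, whose peak has its summit at mir-2214.

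Some further members are shown because their windows matched a tRNA gene or tRNA pseudogene, or because they held an exact B-box under a strong peak or beside an A-box. F02D10.15 and F02D10.13 (chrX:13444451-13444540, + strand) were 95.6% identical over 68 bases to the leucine tRNA gene F02D10.t3 (chrX:13443386-13443504, - strand), which is shown for comparison. The window of Y69A2AR.37 (chrIV:2664753-2665339, + strand) and Y69A2AR.38 (chrIV:2664878-2665098, - strand) was 80% identical over 60 bases to the tRNA pseudogene Y69A2AR.t3, and only the part at the summit is shown (chrIV:2664972-2665071, + strand). F26H11.9 and F26H11.10 (chrII:14409495-14409578, - strand) were 96.6% identical over 59 bases to the leucine tRNA gene B0285.t1. The stretches shown for the F02D10 and F26H11 pairs reach beyond the annotated bodies. Among those shown, an exact B-box but no match to an annotated RNA gene at those limits was found at T20B12.12 (chrIII:7387621-7387711, + strand), at K10H10.14 (chrII:14496894-14497177, + strand) with K10H10.11 (chrII:14497091-14497170, + strand), and beside a member on chromosome IV (chrIV:14875170-14875262). It was also found at members not shown, such as Y46E12A.11, Y40A1A.6, Y40A1A.5 and linc-7. T20B12.12 and K10H10.14 had no A-box 20 to 80 bases before the exact B-box. Of K10H10.14 the part around the summit is shown (chrII:14496993-14497182, + strand), and of the member on chromosome IV the window beside it (chrIV:14875367-14875466, + strand). Capitals mark GTTCGANNC and, upstream of it, matches to the A-box motif TGGCNNAGT with at most 1 mismatch.
F02D10.15/F02D10.13: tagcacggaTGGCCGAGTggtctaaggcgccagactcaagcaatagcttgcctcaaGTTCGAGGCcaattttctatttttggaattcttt
F02D10.t3: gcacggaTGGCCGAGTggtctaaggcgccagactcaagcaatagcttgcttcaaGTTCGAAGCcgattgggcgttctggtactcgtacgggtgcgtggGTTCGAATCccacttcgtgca
Y69A2AR.37/Y69A2AR.38, summit part: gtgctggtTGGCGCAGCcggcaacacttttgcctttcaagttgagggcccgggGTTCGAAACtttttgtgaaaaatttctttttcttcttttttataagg
F26H11.9/F26H11.10: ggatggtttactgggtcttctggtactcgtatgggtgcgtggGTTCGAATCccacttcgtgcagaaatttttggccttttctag
T20B12.12: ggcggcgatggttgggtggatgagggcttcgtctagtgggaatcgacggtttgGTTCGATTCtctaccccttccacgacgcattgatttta
K10H10.14/K10H10.11, summit part: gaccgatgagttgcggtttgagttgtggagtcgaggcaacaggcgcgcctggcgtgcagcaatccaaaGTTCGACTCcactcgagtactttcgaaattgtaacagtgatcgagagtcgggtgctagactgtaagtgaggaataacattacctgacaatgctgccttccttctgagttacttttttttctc
Window beside the member on chromosome IV: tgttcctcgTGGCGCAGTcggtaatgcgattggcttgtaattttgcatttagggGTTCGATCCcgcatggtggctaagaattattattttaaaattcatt

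The match of F02D10.15 to GTTCGANNC lay where F02D10.t3 has the first of its 2 matches, and the identity between them ended soon after it. The second match of F02D10.t3 is near its 3′ end, and the F26H11 element resembled that end of leucine tRNA genes. Its identity lay over 59 of the 120 bases of B0285.t1, and that of the F02D10 element over 68 of the 119 bases of F02D10.t3. Beside the member on chromosome IV (signal 1102) the A-box and B-box lay outside the annotated gene, whose body ended 115 bp from the summit.

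The peak values are the authors' signal per peak, relative to a control alignment, and can be ranked only within a list. C14F11.14 ranked 4 of 1860 in the IDR list with a signal of 12277, and ranked 4 in each replicate list (10006 in replicate 1 and 2355 in replicate 3). F08G2.13 ranked 12 (8644), with rank 13 in replicate 1 (6810) and rank 7 in replicate 3 (1818). W01D2.7 ranked 53 (6316), with ranks 55 and 62. Both replicates thus placed these members near the top of their lists. K10H10.14 and K10H10.11 shared the peak of rank 58 (6194), which ranked 54 in replicate 1 and 60 in replicate 3. B0361.13 ranked 114 (4970), F08G2.12 ranked 143 (4647), ZK816.8 and ZK816.9 ranked 145 (4628) and W01D2.8 ranked 149 (4592). In replicates 1 and 3, B0361.13 ranked 122 and 55, F08G2.12 142 and 157, the ZK816 pair 156 and 118, and W01D2.8 176 and 94. All of these lay in the top 176 peaks of both lists.

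R144.16 ranked 151 (4543), with its summit 85 bp outside its body in srpr-2.2, an SRP RNA gene, so that peak is one that the distance rule did not remove. T28D6.10, T28D6.13 and T28D6.15 shared a peak of rank 169 (4415) in tba-7, which encodes an alpha-tubulin. That peak ranked 155 in replicate 1 and 207 in replicate 3. T20B12.12, in an intron of trd-1, ranked 232 (3782), with ranks 247 and 192. Y69A2AR.37 and Y69A2AR.38 ranked 350 (2882), with ranks 345 and 330. CD4.18 (2480), M163.12 (2454), Y46E12A.11 (1994) and C18C4.17 (1830) followed at ranks 406, 412, 486 and 515. Their replicate ranks ran from 389 to 537.

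The 16 peaks just listed were the members with a signal at or above 1712, the lower quartile of the 534 tRNA peaks. They are called strong here and carried 21 of the 180 genes. The remaining 126 member peaks reached at most 1458, at F02D10.15 and F02D10.13. The member peaks had a median of 103 and quartiles of 68.9 and 292, against a median of 2789 at tRNA peaks, 3141 at the 85 snoRNA peaks and 91.5 at the 1024 other peaks that met the same distance rule. Of the member peaks 29.6% were among the top 930 of the list, compared with 96.3% of tRNA peaks and 26.5% of the other peaks of the rule. Signal at or above the tRNA lower quartile was seen at 11.3% of member peaks and at 5.66% of the other peaks of the rule. These values chose the members and are a description. The reference genes were bound in the same list at 565 of 612 tRNA genes, 85 of 346 snoRNA genes and all 8 genes for RNase P, MRP, Y and SRP RNA. Of the snRNA genes 20 of 129 were bound, and of the nuclear rRNA genes 2 of 20.

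**Figure D2:**
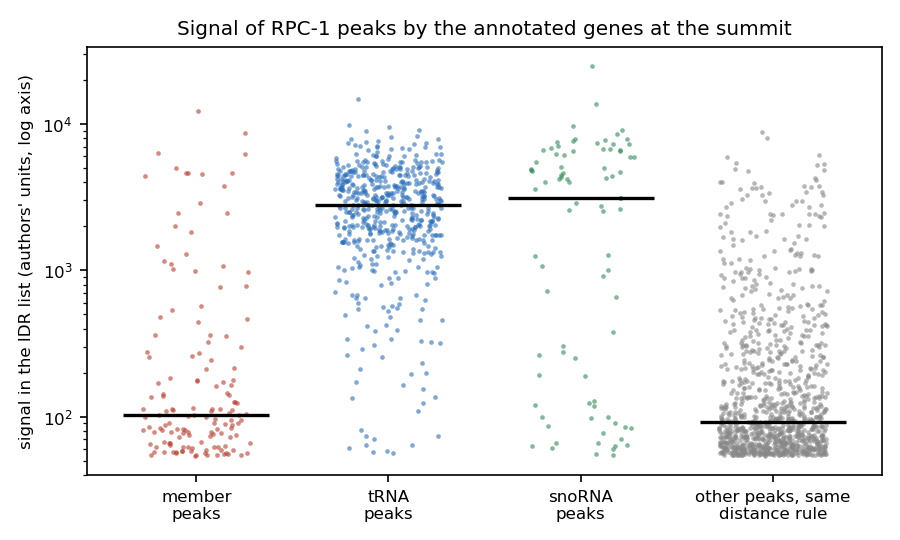
Signal of each IDR peak in the authors' units on a log axis, by the annotated genes at its summit; each point is a peak and the black bar is the median. The member peaks spread from 54.3 to 12277 with most near the median of 103, while the 534 tRNA peaks have a median of 2789.

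Ranks were closer between the replicates for strong members than for weak ones. Every one of the 16 strong peaks had a summit within 250 bp in both replicate lists and ranked within the top 537 in replicate 1 and the top 513 in replicate 3. The list and the signal that set the strong peaks come from these same 2 samples. High ranks in both were thus partly fixed by the selection and are a description only. Of the 26 further peaks in the top 930, 25 were in both lists, with ranks up to 906 and 1127. Of the 100 member peaks of lower rank, 85 were in both lists, 13 only in that of replicate 1 and 2 only in that of replicate 3. Their median rank was 1374 in replicate 1 and 2495 in replicate 3, and the lowest in replicate 3 was 26285 of 30000. When each list was cut to as many top peaks as the IDR list holds, 25 of these 100 were in both. Of all member peaks 88.7% were in both full lists, against 87.2% of the other peaks of the rule and 98.9% of tRNA peaks. Presence in both full lists thus does not set the members apart from the other peaks of the rule. Across peaks, the rank correlation between replicates was 0.94 for the 16 strong peaks and 0.15 for the 85 of lower rank listed in both, as a description over peaks that share the same 2 samples. It was 0.75 for the further peaks in the top 930 and 0.73 over all member peaks listed in both. The groups were cut on signal and span unlike ranges of it, so their coefficients cannot be compared directly. Summits moved little for strong peaks, by a median of 0 bp in replicate 1 and 4 bp in replicate 3 from the IDR summit, and by 11 and 34 bp for those of lower rank.

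**Figure D3:**
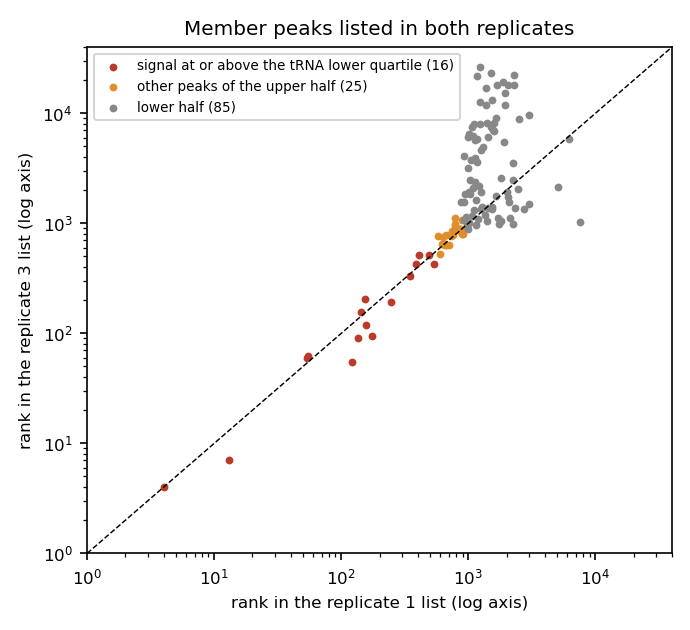
Rank of each member peak listed in both replicates, replicate 1 on the horizontal and replicate 3 on the vertical log axis, with equal ranks on the dashed line. The 16 strongest peaks lie near the line, and many of the 85 peaks of lower rank lie far above it, up to rank 26285 in replicate 3.

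The strongest member peak that was missing from a replicate list lay at T18D3.10, T18D3.13 and T18D3.14. These genes shared a peak of rank 738 (573) upstream of myo-2, a myosin heavy chain gene of the pharynx. It ranked 355 in replicate 3 (579), and replicate 1 had no summit within 250 bp. W01D2.9, whose window overlapped that of W01D2.7, ranked 626 in replicate 3 and likewise had no replicate 1 summit of its own. The converse was common among weak members: Y75B12B.16, W05H9.3, R03G5.8 and K02A11.6 with K02A11.9 ranked between 977 and 1069 in replicate 1 and had no summit in replicate 3.

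Summits fell inside a member body at 84 of the 142 peaks, and at 13 of the 16 strong ones. Of the 180 genes 95 contained a summit. Up to 5 members shared a peak, as at Y37A1B.337 and its neighbours on chromosome IV (357), and 35 of 142 peaks had 2 or more members. Which of the overlapping genes carries the polymerase cannot be told apart in these lists, since the values are per peak and without strand. Opposite-strand overlap with another ncRNA gene was annotated for 56 members. No share over all ncRNA and lncRNA genes stands beside this count, so it is not shown to be particular to the members. F54D5.18 and F54D5.22 had the same coordinates on opposite strands (chrII:11545464-11545613) and shared a peak of 1296.

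**Figure D4:**
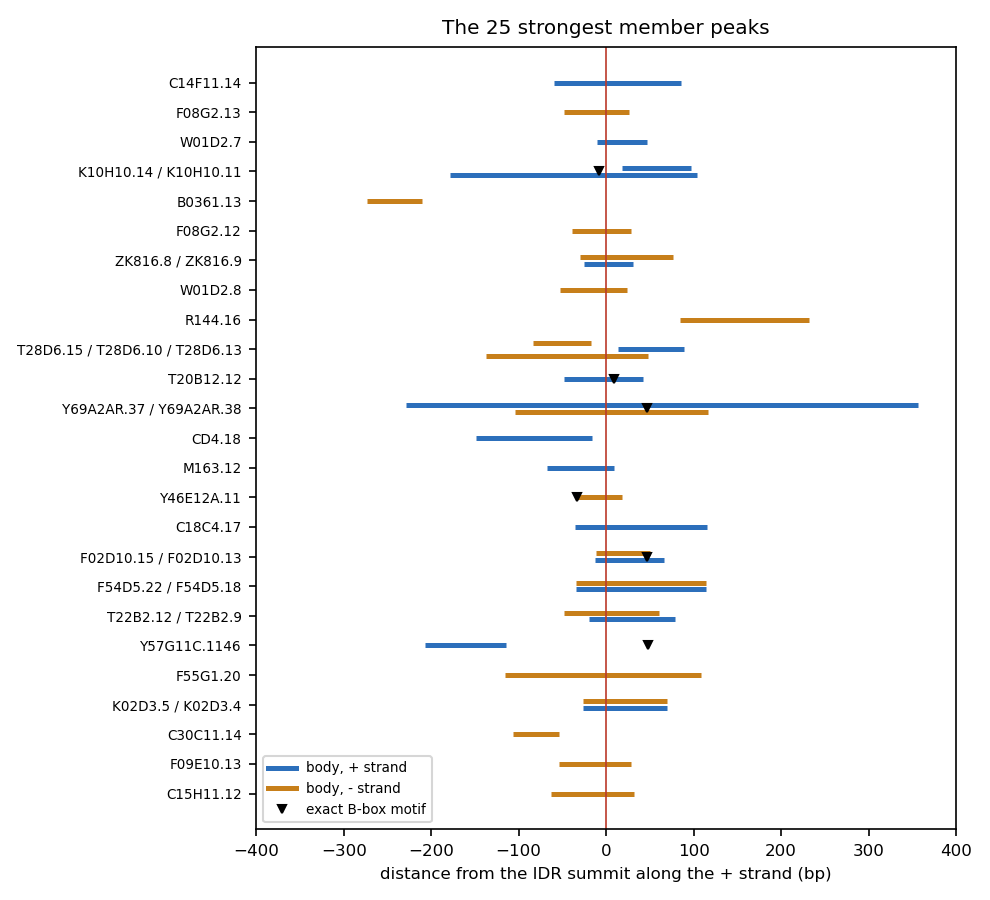
Annotated bodies of the members at the 25 strongest member peaks, as distance in bp from the IDR summit along the + strand, with exact B-box motifs within 250 bp as triangles. Most bodies span or touch the summit at 0, and the farthest bodies lie 211 bp (B0361.13), 115 bp (a member on chromosome IV), 85 bp (R144.16) and 54 bp (C30C11.14) away from it.

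The members were short, with a median of 147 bases against 141 for all ncRNA and lncRNA genes. Those at the strong peaks had a median of 80 bases. Of the 180 members 128 (71.1%) lay outside protein-coding genes, 42 (23.3%) in introns, 8 in untranslated exons and 2 in coding exons. Among all ncRNA and lncRNA genes 56.1% lay outside protein-coding genes and 33.3% in introns. Of the 42 intronic members 19 had a host on their own strand, among them W01D2.8 in W01D2.3, T20B12.12 in trd-1, CD4.18 in CD4.11 and lfor-2 in atgp-2. Chromosome X held 45 members of its 2558 ncRNA and lncRNA genes (1.76%), the lowest share, and chromosome III held 27 of 789 (3.42%), the highest. Of the strong peaks 5 were on chromosome II, 5 on III, 3 on X, 2 on V, 1 on IV and 0 on I.

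A run of at least 4 T in the last 10 bases or the next 50 was present at 113 of 180 members (62.8%) and at 51.9% of all ncRNA and lncRNA genes. Among the 21 members at strong peaks it was present at 16 (76.2%). The run is common in this genome, and a match says only that the letters are in the window.

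The B-box as first set, GTTCGANNC on either strand with at most 1 mismatch outside N within 250 bp of the summit, was about as frequent at the flanks as at member peaks. It was found at 92 of 142 member peaks (64.8%), at 62.7% and 64.1% of windows 2000 bp to the left and right, and at 54.4% of all windows of 501 bp tiled over the nuclear genome. An exact match was found at 20 member peaks (14.1%), against 5.63% and 4.93% of the flanking windows and 3.76% of the tiled windows. At tRNA peaks the exact share was 73.6%, at snoRNA peaks 28.2% and at the other peaks of the rule 13.5%. Within the top 930 peaks it was 12 of 42 member peaks (28.6%), and among the 100 of lower rank it was 8. A motif longer by a G before and a C after, with at most 1 mismatch and chosen after the data were seen, was at 25 member peaks (17.6%), at 8.45% and 7.75% of flanks and at 4.41% of tiled windows. The longer motif was at 18.1% of the other peaks of the rule and at 87.8% of tRNA peaks. It thus does not set the members apart from the other peaks of the rule.

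Of the 16 strong peaks 4 (25%) had an exact B-box within 250 bp, as did 6.25% and 12.5% of their flanks. The 13.5% given for the other peaks of the rule covers peaks of any signal. That share therefore cannot be compared directly with the one at strong peaks. The longer motif was at 7 of the 16 strong peaks (43.8%), and at 25% and 18.8% of their flanks. An A-box 20 to 80 bases before a B-box, each with at most 1 mismatch, was at 3, those of ZK816, T28D6 and Y69A2AR. That is 18.8%, with 12.5% and 18.8% at the flanks. The middle of the exact motif was 8 bp from the summit at K10H10.14, 9 bp at T20B12.12, 33 bp at Y46E12A.11 and 47 bp at Y69A2AR.37. Among the weaker peaks it was 47 bp away at F02D10.15. It lay 48 bp away in the window beside the member on chromosome IV, 41 bp at F26H11.10, 43 bp at Y40A1A.6, 235 bp at K02E11.15, 19 bp at Y75D11A.8 and 5 bp at F36H1.17. Within 50 bp of the summit an exact B-box was present at 13 member peaks (9.15%), at 55.1% of tRNA peaks and at 7.81% of the other peaks of the rule. An A-box starting 20 to 80 bases before a B-box on the same strand, each with at most 1 mismatch, was present at 20 member peaks (14.1%) and at 7.04% and 7.75% of their flanks. The same pair was at 78.8% of tRNA peaks, 22.7% of the other peaks of the rule and 4.62% of tiled windows. With an exact B-box the pair was at 9 member peaks (6.34%), 7.71% of the other peaks of the rule and 61.4% of tRNA peaks. The members were thus no richer in it than the other peaks. Among the 9 were Y69A2AR.37, F02D10.15, Y40A1A.6, Y75D11A.8, linc-7, F09E10.15 and Y66A7AL.1.

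**Figure D5:**
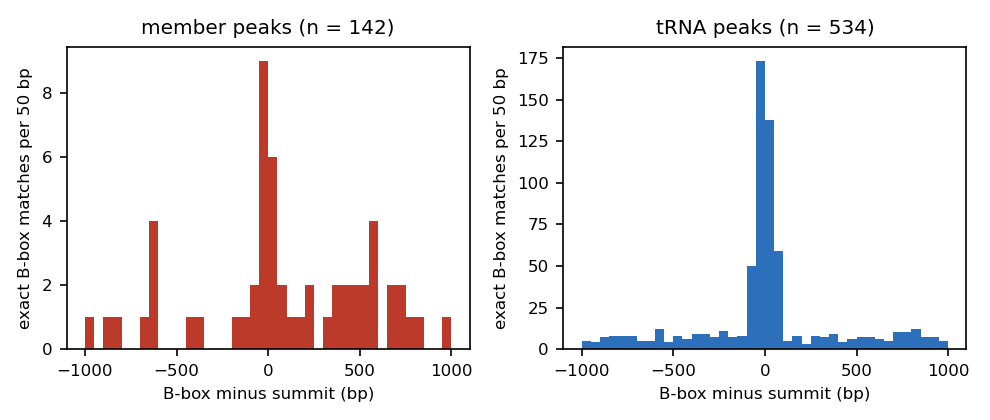
Number of exact B-box motifs per 50 bp against their distance in bp from the summit, for the 142 member peaks on the left and the 534 tRNA peaks on the right, on separate vertical scales. At both the motifs are most frequent near 0, but 9.15% of member peaks and 55.1% of tRNA peaks have one within 50 bp.

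Among members with the summit inside the body, the strongest without an exact B-box were C14F11.14, F08G2.13, W01D2.7, F08G2.12, ZK816.8 with ZK816.9, W01D2.8, T28D6.15, M163.12, C18C4.17 and F54D5.18 with F54D5.22. Those with one were K10H10.14, T20B12.12, Y69A2AR.37, Y46E12A.11, F02D10.15, Y40A1A.6 (322), K02E11.15 (298), Y75D11A.8 (271), F36H1.17 (261) and linc-7 (245). F36H1.17 lay within 250 bp of the microRNA gene mir-51.

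Windows of 250 bp on either side of the summit matched an annotated tRNA, tRNA pseudogene, rRNA, snRNA, snoRNA, RNase P, MRP, Y or SRP RNA gene at 16 member peaks. At 3 of these, R144.16, F55G1.20 and F44A2.13, the match was srpr-2.2, yrn-1 or srpr-3 lying at the summit itself. F55G1.20 had a signal of 1067 and F44A2.13 one of 141. Of the other 13, tRNA genes were the best match of 3, tRNA pseudogenes of 3, snoRNA genes of 3, snRNA genes of 2 and SRP RNA genes of 2. F22H10.10 (276) and F01G12.19 (81.1) held stretches 93.6% and 92.7% identical to srpr-3 over 47 and 55 bases. C09G1.7 (462) and C05D9.12 (172) matched the snoRNA gene C14E2.12 with 93.0% identity over 86 and 84.4% over 77 bases. F09E10.15 (85.0) was 92.7% identical over 82 bases to the tRNA pseudogene D1005.t1, and Y66A7AL.1 (64.9) 82.5% over 57 bases to C25F9.t5. Y75D11A.8 (271) was 81.0% identical over 42 bases to the valine tRNA gene F35A5.t1, and Y43E12A.6 (113) 80% over 40 bases to the snoRNA gene F47G4.9. M163.12 was 88.5% identical over 78 bases to M163.13, and W07G1.19 (54.6) 93.6% over 187 bases to R05D7.6, both annotated as snRNA genes. How reads with several genomic positions were counted is not given in the sources used here, so the signal at such copies is uncertain.

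Compared with each other at the same limits, 23 member windows matched another and fell into 7 groups. No share for other peaks or flanking windows stands beside this count or that of matches to RNA genes. Neither is therefore shown to be particular to the members. The group of 5 with F08G2.12, W01D2.8, CD4.18, M163.12 and C15H11.12 overlapped the set with the 3 words, and CD4.18 was in it although it lacked the exact words. The windows of R144.16, F44A2.13, F22H10.10 and F01G12.19, which matched SRP RNA genes, formed another group of 5 with C05D9.12, which matched a snoRNA gene, and the element on chromosome X the group of 4. Y40A1A.5, Y40A1A.6 and Y75D11A.8, all on chromosome X, formed a group of 3, with 81.0% identity over 337 bases between Y75D11A.8 and Y40A1A.5. The 2 peaks of linc-7 (245 and 178) lay on copies 93.0% identical over 373 bases, each with exact B-boxes near the summit.

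The genes with names of their own were weak members. linc-7 and lfor-2 (257) ranked 901 and 892. tts-1, a long non-coding RNA known from long-lived mutants, had a peak of 91.3 with its summit 99 bp outside the body. linc-78 (114), linc-91 (80.9), linc-90 (77.8), linc-128 (74.9), linc-54 (74.4) and linc-129 (54.9) ranked below 930, and linc-129 had no summit in replicate 3. The 5 longest members were C30E1.9 (14770 bases, 3 peaks, up to 360), linc-129 (3983 bases), linc-91 (3257 bases), linc-90 (3181 bases) and linc-128 (2302 bases).

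Protein-coding promoters, from 500 bp upstream to 250 bp downstream of an annotated 5′ end, held the summits of 40 of 142 member peaks (28.2%), against 36.0% of the other peaks of the rule and 11.6% of tRNA peaks. After the strong peaks, the 6 of highest signal lay at dnj-13 (F54D5.18 and F54D5.22, 1296), at hsp-110 and rpn-3 (C30C11.14, 988), at hsp-1 (F26D10.23, 768), at myo-2 (the T18D3 genes, 573), at dad-1 and tre-1 (F57B10.17, 480.5) and at dlst-1 (W02F12.11, 214). They are named by their order of signal, chosen after the values were seen, and whether any group of genes was more frequent among the 40 was not tested. At such peaks the ncRNA gene and the promoter cannot be told apart. Of the 16 strong peaks 3 were at promoters, those of C14F11.14, W01D2.7 and the ZK816 pair, and all 3 summits were inside the member.

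The 5 lowest members were Y15E3A.8 and Y15E3A.13 (54.3), W02C12.4 (54.5), W07G1.19 (54.6) and C08F8.13 (54.7). Just below the end of the IDR list, R12C12.13, K03C7.11 and W06H8.5 had pooled peaks of 53.7, 53.3 and 53.2. Nearest inside the limit of 250 bp were linc-54 at 248 bp, T24B8.22 at 246 bp and F40F9.14 at 236 bp, and nearest outside were F22E12.12 at 253 bp, F11C7.9 at 254 bp and B0365.10 at 255 bp. The member peaks closest to a tRNA, tRNA pseudogene, rRNA or snRNA gene were those of M163.12 at 667 bp and Y69A2AR.37 at 668 bp. The nearest ncRNA genes outside that limit were F12D9.9 (57.5) at 402 bp and lfor-1 (123) at 392 bp. For snoRNA genes the closest member peak was that of M163.12 at 851 bp, and the closest left out was that of F59C6.19 (55.0) at 112 bp.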

How the data were processed

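RPC-1 binding was measured by ChIP-seq in 2 samples of 1 group. The authors deposited peak lists for each sample, for both samples pooled, and an IDR list derived from these, per the file headers. IDR, the irreproducible discovery rate, measures how well peak ranks repeat between replicates. Each deposited list gives a signal per peak relative to a control alignment, the −log10 of a q-value, which was not used further, and a summit. Another deposited column, the summit offset, set positions. The aligner and peak caller were not given in the sources used here, and depth is unknown. The control alignment and the ce10 lists were not analysed here. The lists hold 1860 IDR peaks and 29914, 30000 and 30000 peaks for replicates 1 and 3 and the pool.

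Summits were matched to the RefSeq annotation of WBcel235, and all sequences are from RefSeq, WBcel235. Matches were found with blastn 2.17.0 (word size 11, at least 80% identity over at least 40 bases). Python 3.11.15 with pandas 2.3.3 was used. Counting and motif searches were checked on simulated data. Replicate peaks counted as shared with summits within 250 bp. No test was run. Members, lists and searches were chosen with earlier results of these data known. Named genes were the 20 members of highest and 5 of lowest signal, the 5 longest, those with names of their own, examples missing from a replicate list, those nearest a limit, those matching an annotated RNA gene, and the 10 strongest with and without a B-box and the summit inside. Alternatives changed distances, list, motif, window and overlap, or dropped 1 replicate and used the 1860 strongest peaks of the remaining one.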

Additional observations from a re-analysis of the deposited data

How the results depend on the processing

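The 180 members became 138 at 100 bp and 219 at 500 bp, and 95 where the summit had to lie inside the body. In the top 930 peaks there were 58, with 31 summits inside a member and 30 peaks with a B-box at 1 mismatch. Leaving out either replicate gave 160 to 191 members, of which 102 (without replicate 1) and 146 (without replicate 3) were among the 180. It gave 74 to 93 summits inside a member and 78 to 92 peaks with a B-box. The 92 peaks with a B-box fell to 20 without mismatches and to 25 with the longer motif, and were 64 within 100 bp. The median signal of 103 was 102 without promoter peaks, 106 per gene and 100.3 without 6 peaks near SRP, Y or microRNA genes, a setting chosen after seeing the data, as was the longer motif. Peaks in both replicate lists fell from 126 to 66 when only the top 1860 of each counted. Member peaks at promoters fell from 40 to 23 with 250 bp on both sides. The cause was not tested. No paired analysis was possible because there was 1 group. Depth is unknown, so weak peaks missing from a replicate list cannot be told apart from peaks missed by depth.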
